A study of Mus musculus with 11 samples.

Results

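Airway basal and hillock epithelial genes were followed here through 9 genes in mouse airway: the keratins Krt5, Krt14, Krt15 and Krt17, the transcription factor Trp63 and the receptor Ngfr of basal cells, the keratins Krt4 and Krt13 of hillock cells, and the desmosomal cadherin Dsg3. They were listed by symbol, with earlier results of these data known, and all 9 were found among the 21899 genes of the deposited table. RNA came from wild-type male BALB/c mice, young adults in every group. PBS mice were not sensitized and received PBS (3 libraries, PBS 1 to 3). OVA/LPS/Vehicle mice were sensitized to ovalbumin with alum, challenged with ovalbumin intranasally, exposed to LPS intranasally and given vehicle (4 libraries, labelled 12, 34, 56 and 78 and called Vehicle here). OVA/LPS/GGsTop mice had the same allergen and LPS exposure and received GGsTop, an inhibitor of γ-glutamyl transferase, into the trachea (4 libraries, GGsTop 1 to 4). The labels name the tissue trachea, whereas the study describes bluntly dissected airway from which the trachea was removed.

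Basal cells lie on the basement membrane of the airway epithelium and are stem cells of the conducting airway, from which secretory and ciliated cells are renewed. They are marked by the keratin pair KRT5 and KRT14, by KRT15 and KRT17, by the p53-family factor TP63 that keeps the basal programme, and by the low-affinity neurotrophin receptor NGFR. Hillocks are stratified patches in the trachea and large airways whose upper cells make KRT13 and KRT4, and desmogleins such as DSG3 join the cells of stratified epithelia. In the mouse, basal cells are plentiful in the trachea and first bronchi and sparse or missing in the small airways. Expression was read as FPKM, fragments scaled by exon length and by the library total, so levels can be compared between genes. In whole tissue, fewer cells of a type and less RNA per cell cannot be told apart.

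The libraries held 14513136 to 18632382 recovered fragments. Alveolar genes were abundant in all of them, with 3541 to 12502 FPKM of Sftpc, the surfactant protein C gene of type II alveolar cells, so RNA of lung parenchyma was present in each. PBS 3 stood apart in how its values moved with the GC content of genes (a slope of 0.533 log2 units per 10 percentage points, against 0.0464 to 0.108 in the other PBS and GGsTop libraries). All 4 Vehicle libraries had slopes below 0 (-0.261 to -0.190) and mitochondrial shares of 14.5 to 19.5% of FPKM, against 2.08 to 11.1% in PBS and GGsTop, so both moved with the Vehicle group. With a GC correction limma called none of the 7 genes fitted in any comparison, as without it, and the part of the mitochondrial share in the differences was not tested. Vehicle 12 held 61.7 FPKM summed over the 8 thymocyte genes, against 3.99 to 14.5 elsewhere. No source says whether replicates of a group were separate animals or whether a label such as 12 stands for a pool, so p-values measure the spread between these libraries.

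On average over the 11 libraries, Krt15 had the highest level (12.9 FPKM), followed by Krt5 (9.84 FPKM), Krt17 (2.48 FPKM) and Ngfr (2.47 FPKM). Trp63 (0.696 FPKM), Krt14 (0.686 FPKM) and Krt4 (0.665 FPKM) formed a lower tier. Krt13 and Dsg3 were lowest, with 0 to 11 and 0 to 2 fragments per library. Within groups, the SD of Krt5 and of Krt15 was above or close to its mean in PBS and GGsTop, so the order between neighbours in this series is loose there.

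These 2 promoters are shown because the genes behind them, a basal and a hillock keratin, had patterns over the libraries that were not shown to be related (Pearson r = 0.162). They are the 250 bases before the RefSeq start, read 5′ to 3′ on the minus strand of GRCm38.p6, at chr15:101712906-101713155 for Krt5 and chr11:100121567-100121816 for one of the 2 Krt13 starts listed.
Krt5: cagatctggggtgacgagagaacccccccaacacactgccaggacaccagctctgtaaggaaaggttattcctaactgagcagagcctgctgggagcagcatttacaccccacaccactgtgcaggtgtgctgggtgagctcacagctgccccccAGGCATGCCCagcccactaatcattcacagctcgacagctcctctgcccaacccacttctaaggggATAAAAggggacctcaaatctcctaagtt
Krt13: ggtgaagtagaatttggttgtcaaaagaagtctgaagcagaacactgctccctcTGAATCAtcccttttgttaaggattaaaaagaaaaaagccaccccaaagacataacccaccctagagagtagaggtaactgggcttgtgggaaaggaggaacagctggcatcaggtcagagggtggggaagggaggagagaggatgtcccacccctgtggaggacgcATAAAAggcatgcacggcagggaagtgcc
Capitals mark the letters of 3 motifs searched on both strands. The run ATAAAA, as in a TATA box, stood from -29 to -24 in both and occurs in 17.0% of 32851 promoter windows of this length. The p53-family half-site, the kind of sequence p63 binds, stood from -95 to -86 of Krt5 and occurs in 7.13% of windows. TGANTCA, the letters of an AP-1 site, stood from -196 to -190 of Krt13 and occurs in 6.75% of windows. The window of the other Krt13 start also held TGANTCA, from -183 to -177 and from -34 to -28, and not ATAAAA. The Krt14 and Ngfr windows held none of the 3, which says only that these letters are not in those windows. These matches are descriptions of sequence and not sites of binding.

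Krt5, the type II keratin of basal cells, was at 0.816, 12.9 and 0.0977 FPKM in PBS 1 to 3. It was at 16.0, 13.5, 11.3 and 11.03 FPKM in Vehicle 12, 34, 56 and 78, and at 2.30, 7.12, 0.0288 and 33.1 FPKM in GGsTop 1 to 4. The Vehicle libraries sat close together, while 2 of 3 PBS and 3 of 4 GGsTop libraries lay below them and PBS 2 lay among them. GGsTop 4 was the highest of all libraries and GGsTop 3 the lowest, with 1076 fragments against 1. Krt5 overlapped in all 3 pairs of groups.

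Krt15, a keratin of basal cells with stem-like features, was at 1.503, 16.6 and 0.456 FPKM in the PBS libraries. The Vehicle libraries 12, 34, 56 and 78 held 17.2, 22.4, 20.5 and 11.4 FPKM, and GGsTop 1 to 4 held 2.71, 8.38, 0.179 and 41.0 FPKM. The order of libraries was almost that of Krt5, with GGsTop 4 highest and PBS 3 and GGsTop 3 lowest. Krt17, a keratin of basal and injured epithelium, was at 0.342, 2.54 and 0 FPKM in PBS, at 5.32, 2.86, 4.53 and 1.97 FPKM in Vehicle and at 0.899, 1.73, 0 and 7.14 FPKM in GGsTop. The 2 libraries in which Krt17 was listed at 0 were again PBS 3 and GGsTop 3.

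Krt14, the type I partner of KRT5, was far less abundant and followed another order. It was at 0.151, 0.624 and 1.13 FPKM in PBS, at 1.10, 0.504, 1.32 and 0.681 FPKM in Vehicle and at 0.0378, 0.274, 0.0721 and 1.65 FPKM in GGsTop. PBS 3, which had 4 fragments of Krt5 and none of Krt17, held 37 fragments of Krt14, one of the higher counts. Of 50-base windows in Krt14 exons, 14.4% also occur in Krt16 or Krt17, so part of its fragments may be uncertain. The share was 8.52% for Krt5, mainly with Krt6a, Gm5478 and Krt6b, and 3.99% for Krt17. Among those relatives, Krt16 was listed at 0 in all libraries.

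Trp63, the gene of the basal-cell factor p63, was at 0.0554, 0.761 and 0.0768 FPKM in PBS. Its levels were 1.11, 1.21, 1.26 and 0.877 FPKM in Vehicle and 0.206, 0.452, 0.0378 and 1.61 FPKM in GGsTop. All 4 Vehicle libraries lay above all 3 PBS libraries, whereas GGsTop spanned both. The long transcript gave Trp63 more fragments than its level implies, 5 to 200 per library.

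Ngfr, which binds neurotrophins on basal cells and on nerve, was at 0.270, 2.602 and 0.296 FPKM in PBS. It was at 11.8, 0.734, 2.22 and 1.51 FPKM in Vehicle and at 0.424, 3.04, 0.331 and 3.94 FPKM in GGsTop. Vehicle 12 was the highest library, at 632 fragments, and the next, GGsTop 4, had 201. Prph, which encodes the peripheral neuron filament peripherin, was also highest in Vehicle 12, at 23.3 FPKM, against at most 10.9 FPKM elsewhere. Its part in the Ngfr value was not tested.

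Krt4, the type II keratin of hillock cells, was at 0.156, 1.36 and 0.101 FPKM in PBS, at 1.12, 0.979, 0.676 and 0.393 FPKM in Vehicle and at 0.249, 0.420, 0.0891 and 1.77 FPKM in GGsTop. GGsTop 4 and PBS 2 were its highest libraries. Krt13, its type I partner in hillock cells, had 4, 2 and 4 fragments in PBS, 3, 11, 10 and 1 in Vehicle and 0, 3, 3 and 2 in GGsTop. Krt13 was thus near the floor of 3 fragments everywhere but in Vehicle 34 and 56, and it did not share the order of Krt4. Dsg3 had 1 fragment in each Vehicle library, 2 in GGsTop 2 and none in the other 6, all under the floor of 3 fragments, and no difference was read from it.

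**Figure D1:**
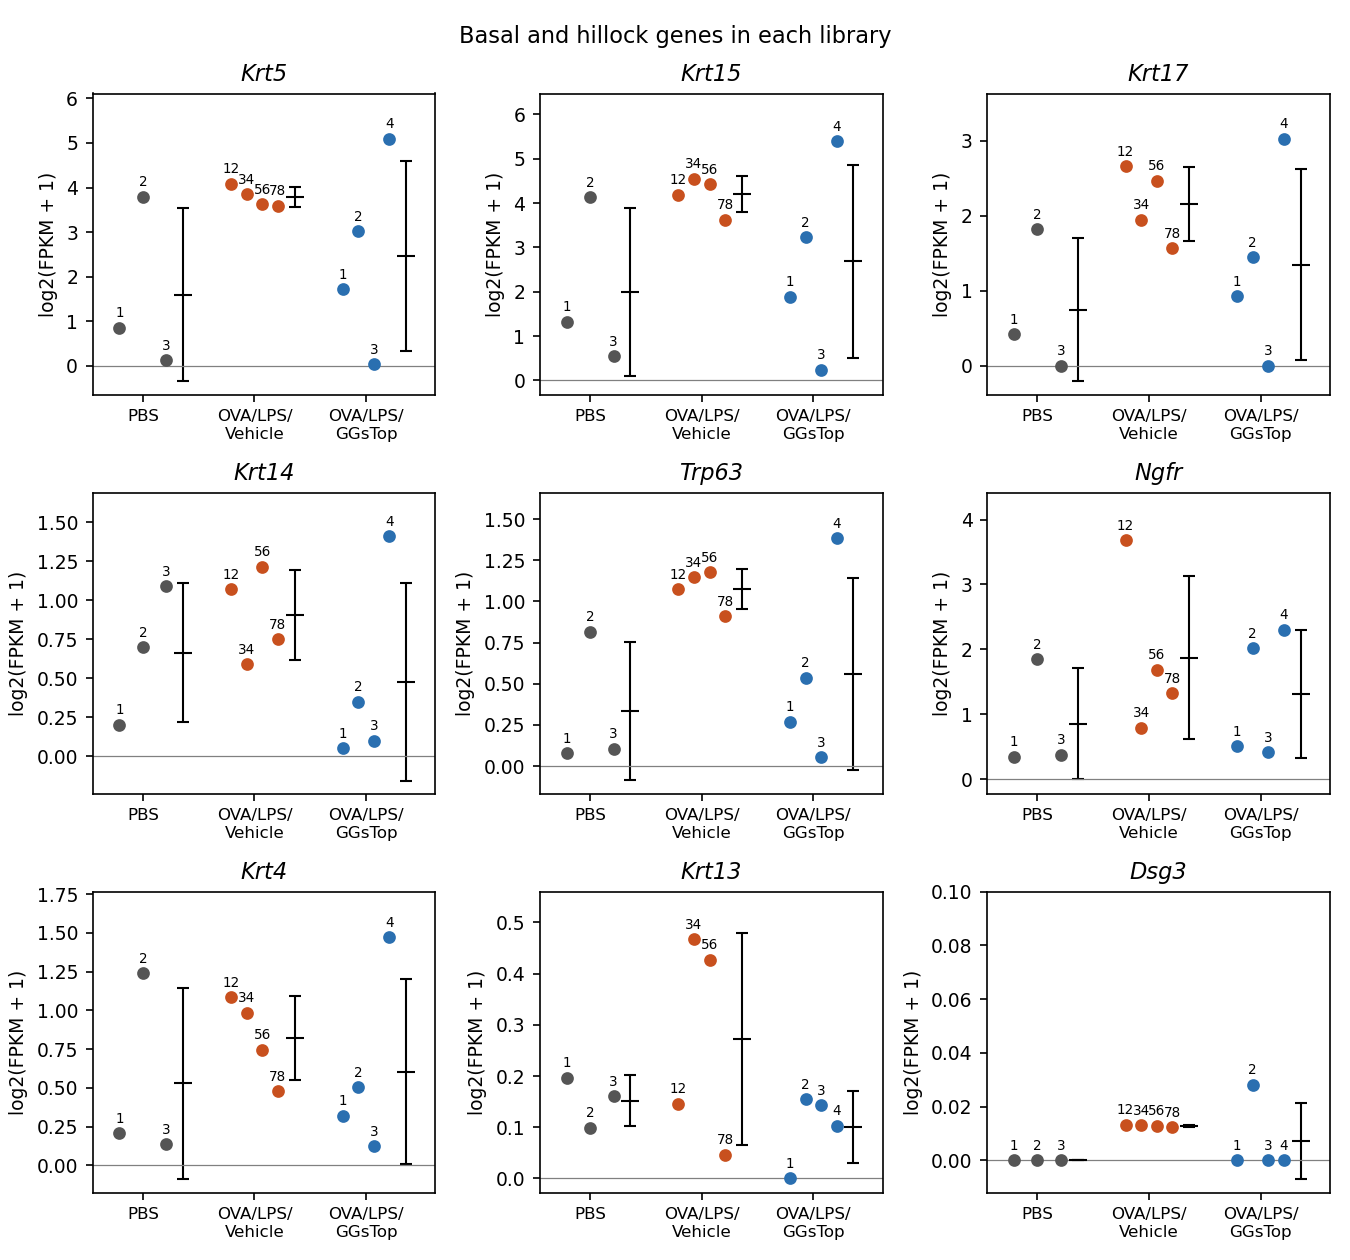
Level of each gene as log2(FPKM + 1) on the vertical axis, with 1 point per library in PBS, OVA/LPS/Vehicle (centre) and OVA/LPS/GGsTop, numbers giving the library, and bars giving the mean and SD of a group. Krt5, Krt15, Krt17, Trp63 and Krt4 were highest in GGsTop 4 and lowest in GGsTop 3, where Krt17 was at 0 as in PBS 3.

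The plot of levels by library shows that the spread within PBS and GGsTop was the main feature of the basal keratins. The SD of log2(FPKM + 1) of Krt5 was 1.94 in PBS and 2.13 in GGsTop, against medians over the genes tested of 0.243 and 0.159. In Vehicle it was 0.233, against a median of 0.133. More than 99% of the genes tested had a smaller SD than Krt5 in PBS (99.7%) and in GGsTop (99.9%). Krt15 had SDs of 1.89, 0.41 and 2.18 in PBS, Vehicle and GGsTop. Ngfr had its widest spread in Vehicle (1.26), which held Vehicle 12, and so did Krt13 (0.21), at far lower levels.

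To ask whether allergen and LPS changed these genes, OVA/LPS/Vehicle was compared with PBS by limma on log2(FPKM + 1) over 14004 genes, all those averaging 0.5 FPKM or more, which 7 of the 9 passed. None of the 7 was called at an adjusted p under 0.05, where 38% of all genes tested were called. Of these, 2, Krt17 and Trp63, had an unadjusted p under 0.05, as did 49.6% of all genes. Limma voom on the recovered fragments called Trp63 alone. Of the 7, Trp63 was the single gene whose groups did not overlap, against 44.1% of all genes tested.

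For Krt5 the difference in mean log2(FPKM + 1), Vehicle minus PBS, was 2.19 (SE 1.05, 95% interval -0.11 to 4.49, limma adjusted p = 0.116). Krt15 differed by 2.20 (SE 1.06, adjusted p = 0.119), Krt17 by 1.41 (SE 0.62, adjusted p = 0.0908) and Ngfr by 1.02 (SE 0.69, adjusted p = 0.256). The difference of Trp63 was 0.74 (SE 0.28, interval 0.12 to 1.37, adjusted p = 0.0583), and an exact two-sided permutation test gave p = 0.0286, the smallest that 4 against 3 libraries allow. Krt4 (0.29, adjusted p = 0.501) and Krt14 (0.24, adjusted p = 0.564) had small estimates on this scale, with intervals on both sides of 0. The scale understates differences of genes this low. Over the alternatives the estimates were 0.012 to 1.37 for Krt4 and 0.011 to 0.72 for Krt14, with no call, and 0.46 to 2.88 for Trp63. For Krt13 an exact two-sided permutation test gave p = 0.4. The median difference of the 7 tested genes was 1.02, beside -0.01 for all genes tested.

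The absence of calls changed with PBS 2, the PBS library with Vehicle-like levels. Without it Krt5 (3.29, limma adjusted p = 0.021), Krt15 (3.27, 0.025), Krt17 (1.95, 0.0288) and Trp63 (0.98, 0.020) were called. The same 4 genes were called with array weights and with the 2 groups fitted alone, and over all alternatives the limma adjusted p of Trp63 ranged from 0.00186 to 0.251. Without PBS 3, the library with the deviating GC slope, the differences were 1.46 for Krt5 (limma adjusted p = 0.396) and 0.63 for Trp63 (adjusted p = 0.195). Without Vehicle 12 the difference of Ngfr was 0.41 in place of 1.02.

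To ask whether GGsTop altered the genes in exposed mice, OVA/LPS/GGsTop was compared with OVA/LPS/Vehicle. None of the 7 tested genes was called by limma, where 8.71% of all genes were, none had an unadjusted p under 0.05, where 30.8% of all genes had, and voom called none. All 9 genes overlapped between the groups, whereas 29.7% of the genes tested did not. The estimates of the 7 were below 0, for Krt5 -1.32 (SE 0.97, interval -3.45 to 0.81, limma adjusted p = 0.370), for Krt15 -1.51 (adjusted p = 0.310), for Krt17 -0.81 (0.353) and for Trp63 -0.52 (0.205). For Krt14 it was -0.43 (limma adjusted p = 0.343), for Ngfr -0.56 (0.575) and for Krt4 -0.22 (0.666). An exact two-sided permutation test of Krt13 gave p = 0.229. Their median was -0.56, beside 0.03 over all genes tested. Trp63 was called without GGsTop 4 (-0.79, limma adjusted p = 0.0399), and the Ngfr estimate was 0.040 without Vehicle 12. The intervals for Krt5 and Krt15 leave room for large differences in either direction.

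In OVA/LPS/GGsTop against PBS, limma called none of the 7 tested genes, where 2.88% of all genes were called (403 genes; over the 6 libraries numbered 1 to 3 alone, 62 with the numbers as a block and 14 with no block, again none of the 7), none had an unadjusted p under 0.05, where 20.5% of all genes had, and voom called none. All 9 overlapped, whereas 14.8% of the genes tested did not overlap. Krt5 differed by 0.87 (SE 1.05, interval -1.43 to 3.17, limma adjusted p = 0.655), Krt15 by 0.69 (adjusted p = 0.737) and Trp63 by 0.23 (adjusted p = 0.670). The estimates of Krt17 (0.60), Ngfr (0.45), Krt4 (0.08) and Krt14 (-0.19) had limma adjusted p-values of 0.602 to 0.912, and the exact permutation p of Krt13 was 0.371. This comparison shares its libraries with the other comparisons. Without GGsTop 4 the Krt5 estimate was -0.0025 and that of Krt15 was -0.22.

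**Figure D2:**
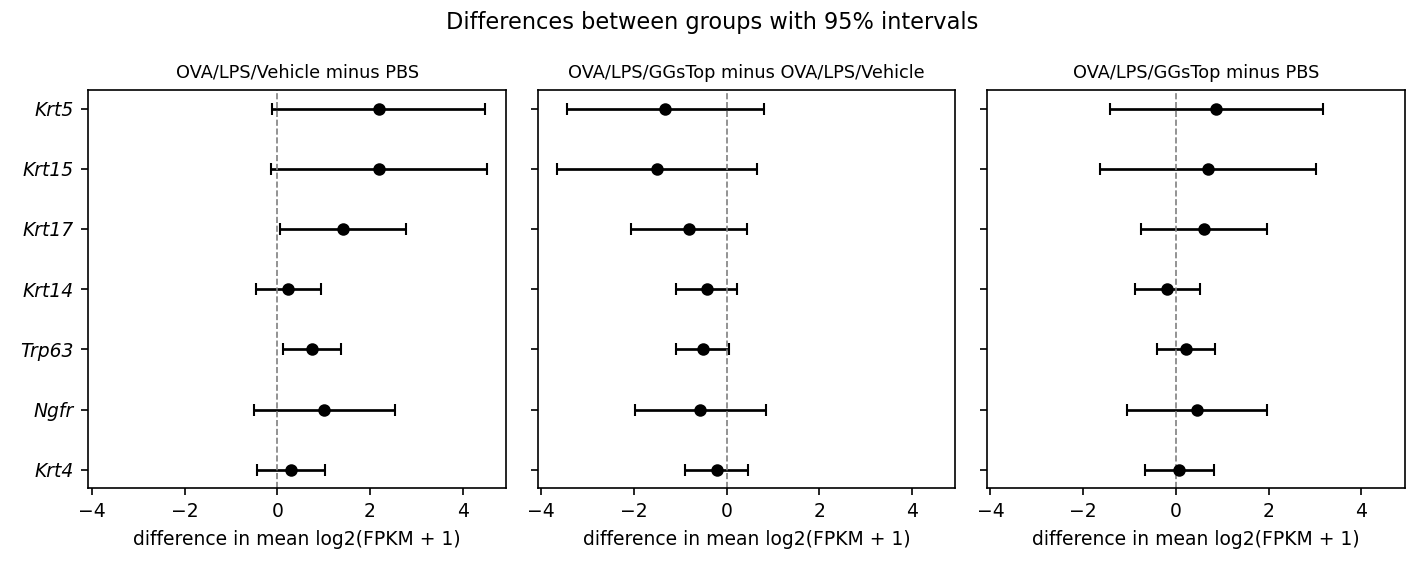
Difference in mean log2(FPKM + 1) of each tested gene on the horizontal axis, with points for the estimate and bars for the 95% interval from limma, in the 3 comparisons of groups. The intervals of Krt17 and Trp63 for Vehicle minus PBS lie above 0 before adjustment (0.05 to 2.77 and 0.12 to 1.37), and every other interval spans 0.

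The plot of differences thus shows wide bars, whereas from library to library the basal genes moved together. Over the 11 libraries, Krt5 and Krt15 had a Pearson r of 0.991 and a Spearman rho of 0.955 on the log2(FPKM + 1) scale, each with a permutation p of 1e-05, the smallest that 100000 permutations give, and adjusted p-values of 6e-05 and 0.00018 over 36 pairs of genes. With Krt5, Krt17 gave r = 0.966 and rho = 0.970, Trp63 0.954 and 0.909, and Krt4 0.899 and 0.964, with permutation p-values adjusted over the 36 pairs of at most 0.00128. Between any pair of Krt5, Krt15, Krt17, Trp63 and Krt4, r was 0.872 to 0.991, and after subtracting each group's mean it was 0.928 to 0.989. Leaving out the 2 libraries farthest from the Krt5 median, PBS 3 and GGsTop 3, the r of Krt5 was 0.980 with Krt15, 0.933 with Krt17, 0.949 with Trp63 and 0.876 with Krt4. The group-centred values pool the 3 groups and draw on the wide spread in PBS and GGsTop. In Vehicle, where the levels lay close together, the orders differed, with Krt5 highest in Vehicle 12, Krt15 in Vehicle 34 and Trp63 in Vehicle 56, and with 3 or 4 libraries a group no correlation was computed within 1 group.

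Ngfr was more loosely tied to Krt5 (r = 0.750, rho = 0.809, permutation p adjusted over the 36 pairs 0.021 and 0.0105, r = 0.680 without PBS 3 and GGsTop 3). Krt14 gave r = 0.568 and rho = 0.573 with Krt5 (adjusted permutation p = 0.122 and 0.132), and r = 0.848 without PBS 3 and GGsTop 3. For Krt13 r was 0.162 with Krt5 (adjusted permutation p = 0.718) and 0.149 with Krt4 (0.718), so the 2 hillock keratins were not shown to move together at this depth.

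Ratios of FPKM within a library describe the same pattern. Where both genes had at least 20 fragments, Krt15 was 1.03 to 1.84 times Krt5 (9 libraries), while Krt5 itself ranged from 0.816 to 33.1 FPKM in those libraries. Krt17 was 0.178 to 0.401 times Krt5 and Trp63 0.0487 to 0.112 times (8 libraries each), and Krt4 was 0.0536 to 0.106 times (5 libraries). Krt14 was 0.0499 to 0.117 times Krt5 in the 4 libraries that allowed it. The rule drops libraries because either gene was low, so these ranges are in part narrowed by it. Among the ratios left out, Krt14 was 0.0164 times Krt5 in GGsTop 1 (1 against 76 fragments). It was 0.0374 times in Vehicle 34 (14 against 468) and 11.6 times in PBS 3 (37 against 4). Krt4 was 0.0356 times Krt5 in Vehicle 78 (14 against 405). Ngfr was 0.0545 to 0.738 times Krt5 over 8 libraries, a 13.5-fold range against 1.79-fold for Krt15.

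**Figure D3:**
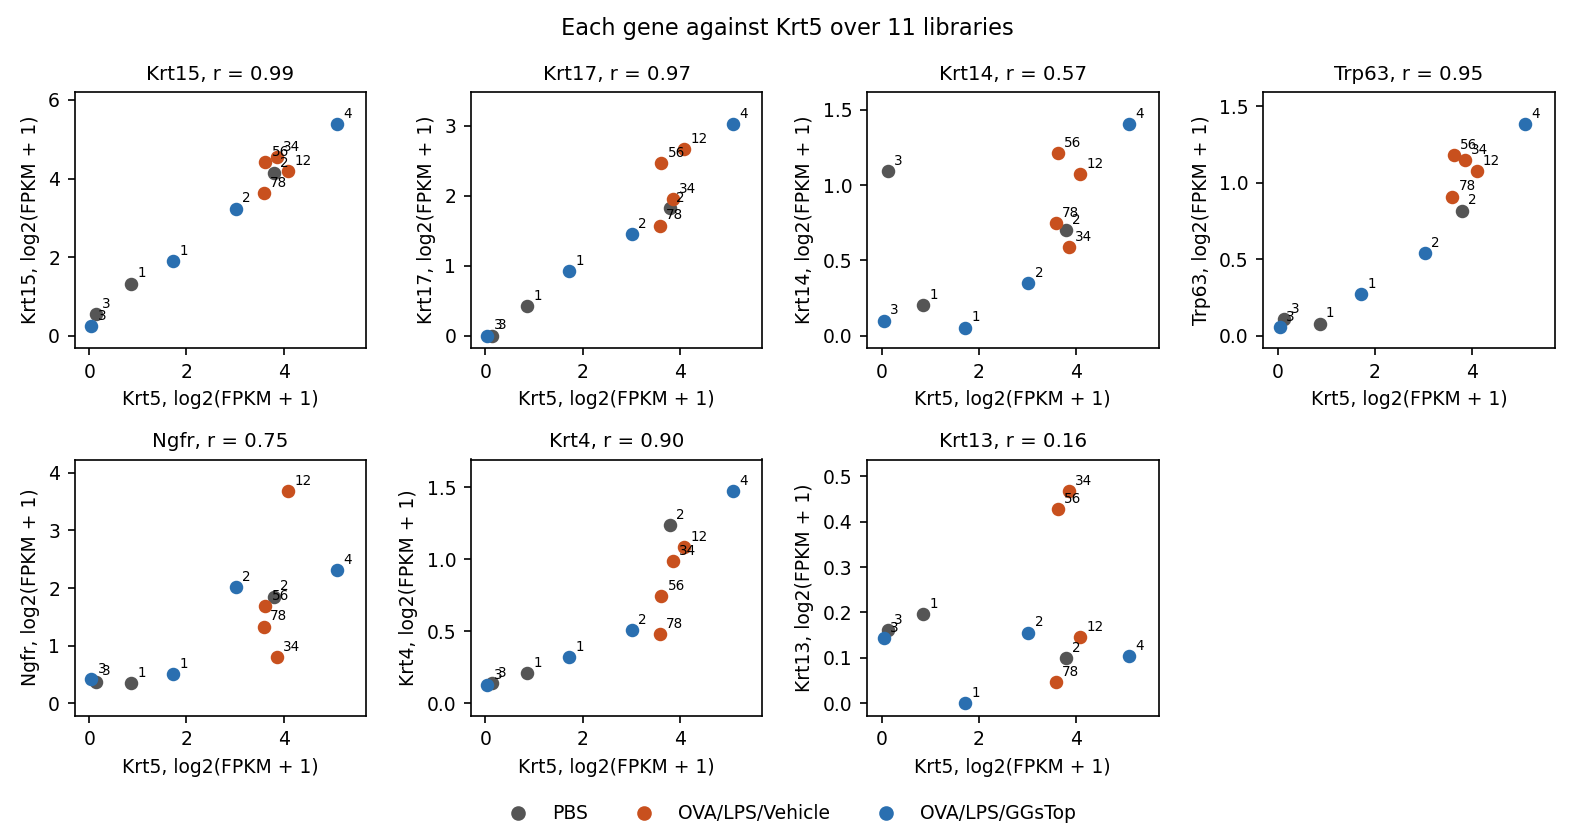
Level of each other gene with a usable count against Krt5, both as log2(FPKM + 1), with 1 numbered point per library coloured by group and Pearson r in each title. Krt15, Krt17, Trp63 and Krt4 rise with Krt5 across all 3 groups, PBS 3 lies off the trend for Krt14, Vehicle 12 for Ngfr, and Vehicle 34 and 56 for Krt13.

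Among all genes tested, those most like Krt5 by Pearson r over the 11 libraries were Cdh26 (0.993), a cadherin, Krt15, Aqp3 (0.980), a water and glycerol channel found in basal cells, S100b (0.972), a calcium-binding protein of Schwann cells, and Apod (0.971), a lipid carrier. Cdh26 ran from 0.0210 FPKM in GGsTop 3 to 15.5 FPKM in GGsTop 4, with 0.0713 FPKM in PBS 3 and 4.85 to 8.17 FPKM in Vehicle. Krt17 was 10th in this order, Trp63 23rd and Krt4 223rd.

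Among the genes most like Krt13 were Slc5a5 (0.901), the sodium-iodide symporter, Slc26a7 (0.883), an anion exchanger, Pth (0.879), parathyroid hormone, and Chga (0.861), a protein of endocrine granules. Slc5a5 was at 4.11 and 4.97 FPKM in Vehicle 34 and 56 and at most 0.441 FPKM elsewhere, so the likeness rests on those 2 libraries and on the 11 and 10 Krt13 fragments in them. All 7 thyroid and parathyroid genes were detected in Vehicle 34 and 56, and their summed level was 284 and 601 FPKM there, 101 FPKM in Vehicle 12, 2.55 FPKM in Vehicle 78, 2.07 to 3.96 FPKM in PBS and 1.61 to 4.67 FPKM in GGsTop. The part of this in the Krt13 values was not tested.

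**Figure D4:**
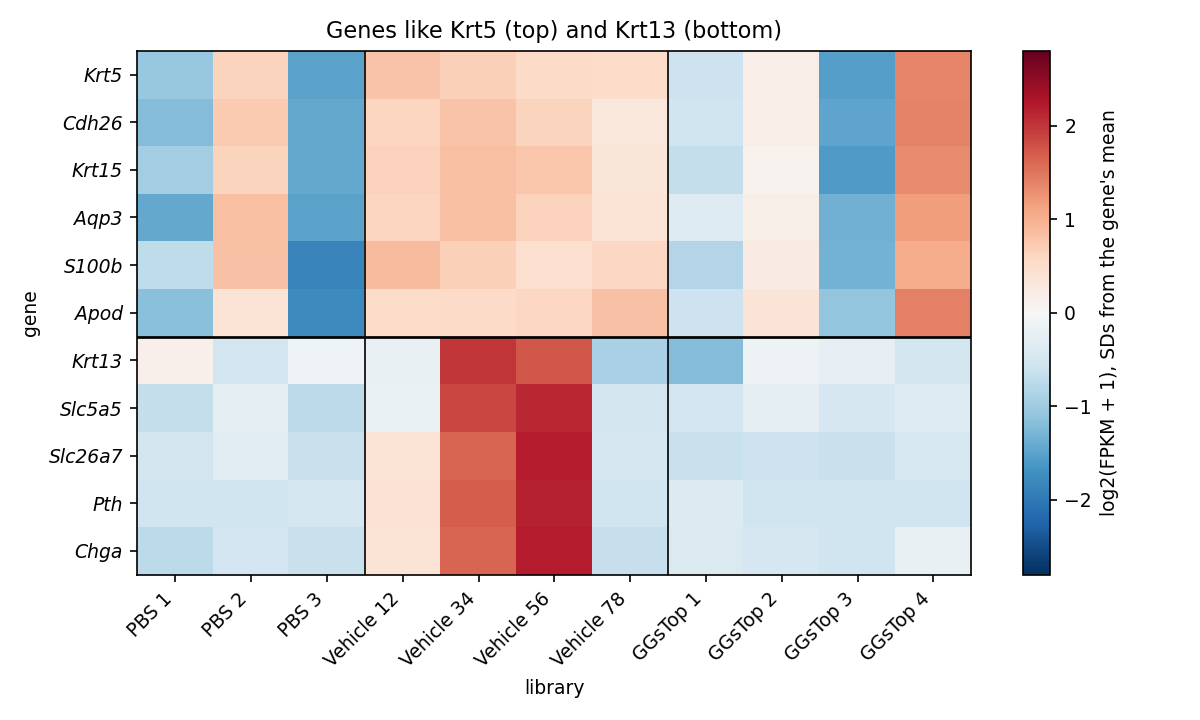
Krt5 and its 5 most similar genes above the line, Krt13 and 4 of its 5 most similar below, over the 11 libraries, coloured by log2(FPKM + 1) in SDs from each gene's mean. The upper block is lowest in PBS 3, GGsTop 3 and PBS 1 and highest in GGsTop 4, and the lower block is highest in Vehicle 34 and 56.

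The heat map separates these patterns. Other genes of basal cells did not all follow the members. Of 18 further basal genes tested, limma called 1 higher and 5 lower in Vehicle than in PBS, beside 15.9% higher and 22.1% lower of all genes, with a median difference of -0.06. The higher one was Sox2, a factor of airway progenitors, at 7.62 to 13.4 FPKM in PBS and 21.9 to 26.1 FPKM in Vehicle (1.23, SE 0.23, adjusted p = 0.00497). Of 8 club and ciliated cell genes, limma also called 5 higher and 1 lower in Vehicle, among the higher Foxj1 (1.41, adjusted p = 0.00416). The part of such cells in the Sox2 difference was not tested. Lama3 (-1.07), Lamb3 (-1.01) and Bcam (-0.97), basement membrane laminin chains and a laminin receptor, were lower (limma adjusted p = 0.00365, 0.00402 and 0.00516). Lama3, Lamb3 and Bcam were negatively related to Krt5 over the libraries (r = -0.78, -0.67 and -0.78), and alveolar type I or type II cells also express them. In GGsTop against Vehicle limma called 1 of the 18, Dst, which encodes a hemidesmosome linker, higher, a number of 0 to 2 with single libraries left out (0 without Vehicle 34, 56 or 78 or GGsTop 1, 2 or 3; 6.9% higher and 1.81% lower over all genes), and in GGsTop against PBS none (2.06% and 0.821%, medians 0.24 and 0.05).

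Of 15 other hillock and squamous genes, 9 passed the filter and Sprr3 was listed at 0 in all libraries. Limma called Anxa1 (0.63, adjusted p = 0.0115), an anti-inflammatory phospholipid-binding protein, higher in Vehicle than PBS, and Ecm1 (-0.81, 0.00366), an extracellular matrix protein, and Tgm1 (-0.81, 0.0114), a cross-linker of the cornified envelope, lower, the Tgm1 call being lost without PBS 3. The median of the 9 was 0.17, and over all genes 15.9% were called higher and 22.1% lower. Ecm1 was the single one called in GGsTop against Vehicle (0.63, limma adjusted p = 0.0204, lost without Vehicle 34, Vehicle 56, GGsTop 1 or GGsTop 3), and none was called in GGsTop against PBS (medians -0.06 and 0.03). Over all genes, 8.71% were called in GGsTop against Vehicle and 2.88% in GGsTop against PBS. Levels on this list differed widely. Ivl and Krt78 stayed at or under 0.251 FPKM in all libraries, whereas Scel was at 7.75 to 26.4 FPKM and Sprr1a reached 2.20 FPKM in PBS 3.

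The desmosome holds stratified and simple epithelia together, and 7 of 9 other desmosome genes passed the filter. In Vehicle against PBS, limma called the cadherins Dsg2 (0.84, adjusted p = 0.0180) and Dsc2 (1.42, 0.0303) and the membrane protein Perp (1.11, 0.0367) higher and the plaque protein Jup (-0.996, 0.00873) lower, with a median of 0.60. The number called was 1 to 5 when single libraries were left out, and was 1 without PBS 1 or PBS 3, when Jup stayed called and Dsg2, Dsc2 and Perp did not. Dsc2 and Perp lost their calls without any 1 library but PBS 2. Over all genes, 15.9% were called higher and 22.1% lower in Vehicle than PBS. None of the 7 was called in GGsTop against Vehicle or against PBS (medians -0.09 and 0.75), where 8.71% and 2.88% of all genes were. Of the 47 other keratin genes, 10 passed the filter, and limma called Krt7 (-1.10, adjusted p = 0.00682), Krt23 (-0.60, 0.00799) and Krt80 (-0.74, 0.0286) lower and Krt222 (0.64, 0.0489) higher in Vehicle than PBS (median -0.21). These 4 calls among 10 keratins stand beside 38% of all genes called in Vehicle against PBS. None of the 10 was called in the other 2 comparisons (medians 0.13 and -0.16). Krt80 and Krt222 lost their calls without PBS 1, PBS 3, Vehicle 12 or Vehicle 78, and Krt222 also without Vehicle 34 or 56.

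Ngfr was also set beside its ligands and co-receptors. Of 10 such genes, limma called Sort1 (-0.29, adjusted p = 0.0307), which encodes sortilin, a co-receptor for proneurotrophins, and Sorcs2 (-0.49, 0.0329), its relative, lower in Vehicle than PBS, and Sort1 (0.34, 0.0373) higher in GGsTop than Vehicle, with medians of -0.04, 0.01 and 0.01 in the 3 comparisons. Over all genes, 22.1% were called lower in Vehicle than PBS and 6.9% higher in GGsTop than Vehicle. For Vehicle against PBS, the Sort1 call was lost without PBS 1, PBS 2, Vehicle 12, 34 or 56, and that of Sorcs2 without PBS 2, PBS 3, Vehicle 12, 56 or 78. The Sort1 call for GGsTop against Vehicle was lost without any 1 library but GGsTop 4.

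Mean levels of some other marker lists moved with or against Krt5 from library to library. Over the 11 libraries, Krt5 was set against the mean log2(FPKM + 1) of each of 18 gene lists, a comparison added after the data were seen. It ran against the 7 alveolar genes (r = -0.875, rho = -0.873, permutation p adjusted over the 18 lists 0.00198 and 0.0153), also after subtracting group means (r = -0.859) and without PBS 3 and GGsTop 3 (r = -0.793). It ran with the mean of the 9 desmosome genes (r = 0.911, rho = 0.764, adjusted permutation p = 0.00198 and 0.0291) and that of the 12 Schwann cell and nerve genes (r = 0.899, rho = 0.800, adjusted permutation p = 0.00198 and 0.0205). Single genes differed. The most abundant gene of each list, Jup (r = -0.86) and Pmp22 (-0.73), ran against Krt5, as did Pkp3 (-0.27) and Prx (-0.95). The rest of both lists had positive r, with Erbb3 at 0.01 and Pkp2 at 0.16. Without PBS 3 and GGsTop 3, r was 0.899 for the desmosome and 0.841 for the Schwann cell and nerve genes. No other list had both adjusted p-values under 0.05.

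The alveolar sum was lowest in GGsTop 4 (4278 FPKM), where Krt5 was highest, and highest in PBS 3 (15580 FPKM), with GGsTop 3 (11459 FPKM) next. It was 9790 to 15580 FPKM in PBS, 4954 to 8199 FPKM in Vehicle and 4278 to 11459 FPKM in GGsTop. Limma called 3 of the 7 alveolar genes lower in Vehicle than PBS, beside 22.1% of all genes. Of the Schwann cell and nerve genes, Cdh19, a cadherin of Schwann cells, was at 0.109, 2.40 and 0.0752 FPKM in PBS, at 4.48, 1.77, 8.41 and 6.10 FPKM in Vehicle and at 0.962, 1.67, 0.533 and 3.20 FPKM in GGsTop. PBS 2, whose Krt5 level lay among the Vehicle libraries, was above Vehicle 34 here, so the groups overlapped. Limma called Cdh19 higher in Vehicle than PBS (1.82, SE 0.50, adjusted p = 0.0165), but not with a GC correction or without PBS 1 or PBS 3 (limma adjusted p = 0.00309 to 0.0802 when 1 of these 7 libraries was omitted). The list's summed level, mostly Pmp22 and Prx, was 305 to 322 FPKM in PBS, 254 to 329 FPKM in Vehicle and 223 to 321 FPKM in GGsTop.

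The 9 airway gland genes found summed to 4.77 to 194 FPKM in PBS, 255 to 1602 FPKM in Vehicle and 25.2 to 536 FPKM in GGsTop, and limma called 5 of 6 tested higher in Vehicle than PBS, beside 15.9% of all genes, a number of 0 to 5 with single libraries left out (0 without PBS 3, 1 without PBS 1, 2 without Vehicle 34, 3 without Vehicle 12). In GGsTop against Vehicle limma called Lipf (-5.27, adjusted p = 0.0456), a lipase gene, and Dmbt1 (-2.95, 0.0302), a secreted scavenger receptor gene, lower, beside 1.81% of all genes. Of these 2 calls, that of Lipf was lost without any 1 library but Vehicle 78, and that of Dmbt1 without Vehicle 34, Vehicle 56, GGsTop 1, 2 or 3. Lipf was at 60.0, 219 and 590 FPKM in Vehicle 12, 34 and 56. In Vehicle 78 it was at 0.254 FPKM, within the GGsTop range of 0.0958 to 0.830 FPKM. Dmbt1 was at 2.05 FPKM in Vehicle 78 and 2.43 FPKM in GGsTop 4, so both genes overlapped between Vehicle and GGsTop. Of the gland sum of 255 FPKM in Vehicle 78, Ltf held 222 FPKM. Dcpp2, also on this list, was at 10.7, 23.9 and 304 FPKM in Vehicle 12, 34 and 56 and at most 0.245 FPKM elsewhere. Those 3 Vehicle libraries also held the high thyroid and parathyroid sums. Which gland or tissue these fragments came from was not tested, so the sum is not a measure of airway glands alone. In GGsTop against PBS limma called Muc5b (3.11, adjusted p = 0.0452), a gel-forming mucin gene, higher, beside 2.06% of all genes, and the call was lost without any 1 library but PBS 2 or GGsTop 3. Ltf, the lactoferrin gene of serous gland cells, had r = 0.94 with Krt5, and Lpo, a gland peroxidase gene, was at most 0.0431 FPKM. The 12 cornified epidermis genes summed to 10.2 to 14.1 FPKM in PBS, 19.0 to 25.3 FPKM in Vehicle and 13.6 to 32.1 FPKM in GGsTop, mostly Dmkn. Of the 3 tested, limma called Dmkn higher in Vehicle than PBS (1.06, adjusted p = 0.0117), beside 15.9% of all genes. Among the keratins of this list, Krt2 was at 0, Krt1 at 0.0150 to 0.612 FPKM and Krt10 at 0.976 to 2.42 FPKM. The 8 thymic epithelial genes, markers of another tissue whose cells make Krt5 and Krt14, summed to 13.9 FPKM in Vehicle 12 and to 2.45 to 4.20 FPKM elsewhere. In smooth muscle and myoepithelial genes GGsTop 4 was highest, at 903 FPKM against 394 to 634 FPKM elsewhere. The part of these tissues in the group values of the basal genes was not tested.

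**Figure D5:**
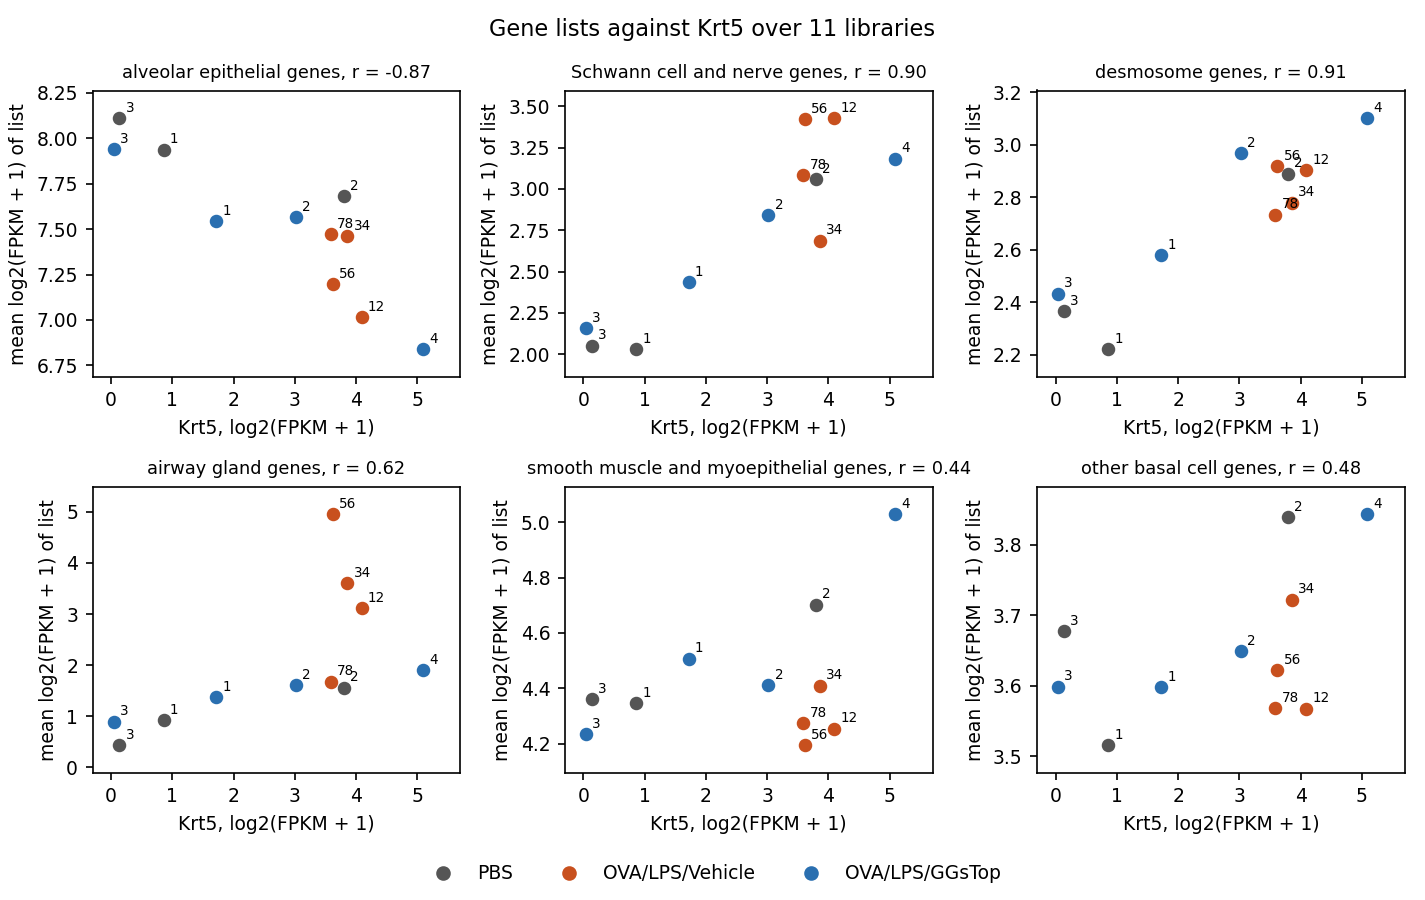
Mean log2(FPKM + 1) of 6 gene lists against Krt5 as log2(FPKM + 1), with 1 numbered point per library coloured by group and Pearson r in each title. The alveolar mean falls and the Schwann cell and desmosome means rise as Krt5 rises. The gland mean is highest in Vehicle 56, and the smooth muscle mean in GGsTop 4.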

How the data were processed

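Airway RNA of 11 samples (PBS 3, OVA/LPS/Vehicle 4 samples, OVA/LPS/GGsTop 4 samples) was sequenced from poly-A libraries. The authors deposited FPKM per gene and library, with no further scaling stated. The submitters' processing notes name cutadapt 1.15, HISAT2 2.0.5, HTSeq 0.9.1 and the mm39 build, and the annotation is not given in the sources used here. FPKM times exon length (GENCODE M21, GRCm38) was a whole multiple of 1 step per library, within 0.02, for 98.0% of genes with a length, which gave the fragments quoted. For promoters, 5 windows of 4 of the 9 genes were matched in the RefSeq table.

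The members, the gene lists and the alternatives were chosen with earlier results of these data known. A mean of 0.5 FPKM over the libraries was the minimum, which kept 14004 genes, and their log2(FPKM + 1) values were fitted in 1 model of all 11 libraries (limma 3.58.1, R 4.3.3, trend in the variance prior). P-values were two-sided and adjusted after Benjamini and Hochberg over these genes, and calls were made below 0.05. Krt13 and Dsg3, under the filter, were left to an exact two-sided permutation test. Differences on this scale understate the fold change of low genes. The study used DESeq for counts, which was not used here because the deposited values are FPKM. The genes named are the 9 members, up to 4 genes per list by smallest p or by level, and the 5 genes most like Krt5 and Krt13, some of which are not reported here. S100b, Prph, Ltf, Lpo, Ivl, Krt78, Scel, Sprr1a, Krt1, Krt2, Krt16, Dmkn, Sprr3 and Dst were singled out after their values were seen where they fall outside that rule. Correlations were Pearson and Spearman with 100000 permutations.

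PBS and OVA/LPS/GGsTop share the numbers 1 to 3. Deviations from the group means correlated at 0.367, 0.427 and 0.428 within numbers, so the numbers were taken to pair the samples from the data, although no label states it, and PBS 1 correlated better with GGsTop 3 (0.457) and PBS 2 with GGsTop 4 (0.637). Alternatives were another pseudocount and filter, other scalings, a GC correction, array weights, fits of the compared groups alone, voom on recovered fragments, a replicate block, its 6 libraries with no block, and each library left out. Python 3.11.15 was used with matplotlib 3.10.9, numpy 2.4.6 and pandas 2.3.3.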

Additional observations from a re-analysis of the deposited data

Results flagged for a closer look

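Within each group of 4, the gap between the highest or lowest library and its nearest neighbour was set against the group's range for 8 of the 9 genes, on the FPKM and on the log2(FPKM + 1) scale (Dixon's test at the 95% level). Of these 16 groups of values, 2 held a library far from the others on the FPKM scale. The nominal rate of 1 in 20 is for a single test of normal values. Here both scales were tested and several of the genes moved together, so that rate gives no expected number of flags. Ngfr stood at 11.8 FPKM in OVA/LPS/Vehicle 12, a gap of 0.866 of the range over Vehicle 56. Krt14 stood at 1.65 FPKM in OVA/LPS/GGsTop 4, a gap of 0.854 of the range over GGsTop 2. Neither passed on the log2(FPKM + 1) scale, where GGsTop 4 had a gap of 0.781 for Krt14.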

How the results depend on the processing

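In OVA/LPS/Vehicle against PBS, the number of the 9 genes called was 0 as reported, 4 with array weights or with the 2 groups alone, 1 (Trp63) with equal medians or with voom, and 0 to 4 with single libraries left out. In OVA/LPS/GGsTop against OVA/LPS/Vehicle it was 2 (Krt15 and Trp63) with array weights and 0 to 1 with single libraries left out, and in OVA/LPS/GGsTop against PBS 0 throughout. In that last comparison several estimates changed sign. With GGsTop 4 left out they were -0.0025 for Krt5, -0.22 for Krt15, -0.047 for Trp63 and -0.21 for Krt4, and the replicate block, which is fitted on the 6 libraries numbered 1 to 3 and so has no GGsTop 4, gave the same estimates, as did these 6 libraries with no block. The block with a GC correction gave -0.12 for Krt15, -0.14 for Trp63 and -0.12 for Krt4. The block changed no call of the 7 genes fitted. The number of all genes called was 403 as reported, 200 without GGsTop 4, 14 over the 6 libraries with no block and 62 with the block. Scaled to epithelial genes, Krt4 was at -0.14. With PBS 3 and OVA/LPS/Vehicle 12 both left out, Krt14 was at 0.027, Krt15 at -0.043, Krt4 at -0.12 and, in OVA/LPS/GGsTop against OVA/LPS/Vehicle, Ngfr at 0.040. With single libraries left out, estimates against PBS ranged from -0.0025 to 1.97 for Krt5, -0.50 to 0.027 for Krt14, -0.22 to 1.76 for Krt15, -0.047 to 0.47 for Trp63 and -0.21 to 0.43 for Krt4, and Ngfr against OVA/LPS/Vehicle from -0.92 to 0.040. The causes were not tested.

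Over all genes, the number called ranged from 1194 to 7916 in OVA/LPS/Vehicle against PBS (5327 as reported), from 22 to 5214 for GGsTop against Vehicle (1220) and from 14 to 2557 in OVA/LPS/GGsTop against PBS (403), lowest when scaled to epithelial genes or, in the last, over the 6 libraries with no block, and highest with array weights. The GC correction with the block, the 6 libraries with no block and the omission of 2 libraries were chosen after seeing the data. The GC and epithelial scalings were not made for Krt13 and Dsg3. With 0 to 11 fragments, these 2 genes allow no statement about a difference of moderate size.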
